A study of Mus musculus with 28 samples.

Results

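The genes described here carry out mitosis and chromosome segregation. The list held 42 genes chosen by their function, with earlier results of these data known. A gene entered through the probe sets that the platform annotation gives its symbol. Of these, 40 were measured among 12393 genes on the array, and Cdca8 and Espl1 had no probe set under a single symbol. Where a gene had several probe sets (21 genes, against 19 with 1), the one with the highest mean over all arrays stood for it. The members fall into 8 roles: 7 genes of entry into mitosis, 6 of the spindle checkpoint and anaphase-promoting complex, 3 of the chromosomal passenger complex, 4 of the kinetochore, 7 of the spindle, 5 of cytokinesis, 6 of chromosome structure and 2 of cohesion.

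The study measured sorted T cells of C57BL/6N background in 28 preparations, with an Affymetrix Mouse 430A2 array for each, and the values are RMA signals on the log2 scale. CD4+ cells carried the AND T cell receptor transgene and CD8+ cells the OT1 transgene, so cell type and receptor cannot be told apart. All cells spent 2 days in culture with 5 ng/ml of interleukin 7, in untreated plates (unstimulated) or on plate-bound anti-CD3 and anti-CD28 antibodies, each coated at 10 µg/ml (stimulated), and these 4 groups had 3 arrays each on day 2. For day 5, cells were moved for another 3 days into host mice: unstimulated cells into antigen-free hosts (2 CD4 and 3 CD8 arrays), stimulated cells into antigen-free hosts (transient; 2 CD4 and 3 CD8 arrays), and stimulated cells into hosts that express their antigen (dtg-O or -M; continuous; 3 arrays of each cell type). Day 5 cells were sorted from spleen and subcutaneous lymph nodes, and RNA was amplified before labelling. Replicates were independent biological ones, as the study describes them. In such bulk samples, fewer cells in mitosis and less of an RNA per cell cannot be told apart.

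Cells divide by building a bipolar spindle that pulls sister chromatids apart. Cyclin-dependent kinase with its A and B cyclins starts mitosis, the checkpoint holds back the anaphase-promoting complex until each kinetochore is attached, and that complex then marks securin and cyclin B for destruction so that separase can cut cohesin. Resting T cells lie outside the cell cycle, and stimulation through the receptor brings them into it. Many of these genes are transcribed late in the cycle, and their repression in resting cells by the DREAM complex through promoter elements named CDE and CHR, often near CCAAT boxes, is textbook knowledge.

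Promoter windows were looked up because the members moved together, and 33 of the 40 had an entry in the RefSeq promoter table (build GRCm38.p6, 35 windows of 300 bases, 250 before and 50 after the start that the table gives). A CHR-type hexamer, TTTGAA or TTCGAA on either strand, was in the windows of 26 of the 33 genes (78.8%), and 28 of the 35 windows (80.0%) held one, against 19.2% of all 32851 windows in the table. CCAAT on either strand was in the windows of 24 of the 33 genes (72.7%) and in 74.3% of their windows, against 37.4% of all windows. A window with both was found for 23 genes, and in 24 genes a hexamer began within 50 bases of the start. The share of all windows was not counted for either, so these counts have no background beside them. The hexamer was not found in the windows of Birc5, Cenpe, Mad2l1, Ncaph, Nuf2, Nusap1 and Pttg1. A match is a description of these letters only, and the motifs can share the letter at which one ends and the other begins. In 2 of the windows, those of Pttg1 and Kif2c, the start that the table gives lay 1482 and 3852 bases inside the gene. For these genes the sequence at the annotated gene start was not examined. In the other windows the start lay at most 646 bases inside.

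The next 6 sequences show the 5′ to 3′ strand of transcription from 180 bases before the start to 20 after it, with both motifs in capitals on either strand. Cyclin B2, Cdk1, Cdc20 and Top2a are shown as promoters with both motifs and Cdca5 as one with the hexamer alone, since these genes carried large changes below. Cenpe is shown as one with CCAAT and no hexamer. Birc5 and Nusap1, with neither motif in the 300-base window, rose on day 2 by 5.90 and 5.11 in CD4 cells. Kif23, with both, had 0.11, or 0.49 without the third unstimulated arrays of day 2, and was called in neither. Whether the motifs go with the size of a change was not tested. The windows are Ccnb2 at chr9:70421535-70421734 (minus strand), Cdk1 at chr10:69352893-69353092 (minus), Cdc20 at chr4:118437324-118437523 (minus), Top2a at chr11:99024170-99024369 (minus), Cdca5 at chr19:6084917-6085116 (plus) and Cenpe at chr3:135212383-135212582 (plus).
Ccnb2: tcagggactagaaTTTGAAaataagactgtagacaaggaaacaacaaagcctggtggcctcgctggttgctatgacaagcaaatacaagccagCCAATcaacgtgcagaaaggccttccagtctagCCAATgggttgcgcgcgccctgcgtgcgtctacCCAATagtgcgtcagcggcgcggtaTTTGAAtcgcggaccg
Cdk1: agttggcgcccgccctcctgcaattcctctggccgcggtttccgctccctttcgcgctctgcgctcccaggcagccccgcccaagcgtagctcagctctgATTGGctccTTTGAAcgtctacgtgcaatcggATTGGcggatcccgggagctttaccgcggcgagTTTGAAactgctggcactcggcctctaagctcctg
Cdc20: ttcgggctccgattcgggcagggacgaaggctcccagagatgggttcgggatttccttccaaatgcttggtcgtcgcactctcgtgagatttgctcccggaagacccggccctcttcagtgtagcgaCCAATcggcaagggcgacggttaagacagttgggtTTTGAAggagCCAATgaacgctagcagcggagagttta
Top2a: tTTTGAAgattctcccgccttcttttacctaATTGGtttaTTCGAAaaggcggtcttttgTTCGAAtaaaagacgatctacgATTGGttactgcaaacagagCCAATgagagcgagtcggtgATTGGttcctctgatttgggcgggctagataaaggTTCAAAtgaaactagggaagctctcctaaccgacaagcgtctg
Cdca5: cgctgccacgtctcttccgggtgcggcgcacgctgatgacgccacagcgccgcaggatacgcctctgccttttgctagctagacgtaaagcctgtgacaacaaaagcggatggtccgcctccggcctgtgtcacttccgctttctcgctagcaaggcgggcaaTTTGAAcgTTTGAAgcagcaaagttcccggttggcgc
Cenpe: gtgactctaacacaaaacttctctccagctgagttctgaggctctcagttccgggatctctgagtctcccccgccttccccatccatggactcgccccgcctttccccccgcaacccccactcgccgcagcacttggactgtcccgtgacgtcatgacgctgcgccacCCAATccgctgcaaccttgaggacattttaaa

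Some arrays stood apart before any comparison. On day 2, replicate 3 of the unstimulated CD4 and CD8 cells had medians over all probe sets of 4.83 and 4.97, against 6.29 to 6.53 on the other 26 arrays, and Cd8a went against their labels: it was 9.88 on the one labelled CD4 and 5.78 on the one labelled CD8. Counts of called members on day 2 are given with and without both. Other day 2 results include both arrays unless stated. Markers of T cells averaged 8.85 to 12.05 on all arrays. For beta-actin, the 3′ control probe set minus the 5′ one, a measure that grows as RNA is degraded or amplified short, was 2.28 to 4.30 on unstimulated and 1.11 to 1.69 on stimulated arrays of day 2, and on day 5 it was 2.42 to 2.73 in CD4 transient, 1.92 to 2.44 in CD8 unstimulated and 0.31 to 1.02 in the other arrays. The first unstimulated CD8 array of day 5 had the mean of 12 myeloid markers at 10.05 and of 5 plasmablast markers at 8.65, against 5.73 to 6.89 and 5.66 to 5.74 on the other 2 arrays of that group.

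The members were highest after stimulation and under continuous antigen. Averaged over the 40 genes, the arrays lay between 4.96 and 6.56 in unstimulated cells of day 2, between 9.09 and 9.67 after stimulation, and between 9.63 and 10.66 under continuous antigen on day 5. The transient arrays lay at 7.63 to 8.19, and the unstimulated arrays of day 5 at 6.26 and 6.93 in CD4 and 7.02 to 8.46 in CD8 cells. As a description over the 28 arrays, the correlation of a gene with the mean of the other members was above 0.9 in 32 genes, 0.532 for Kif23, -0.324 for Pttg1 (securin) and 0.138 for Smc4 (a condensin subunit), with arrays of a group sharing their condition. The heatmap of members by array shows this as blocks of columns.

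**Figure D1:**
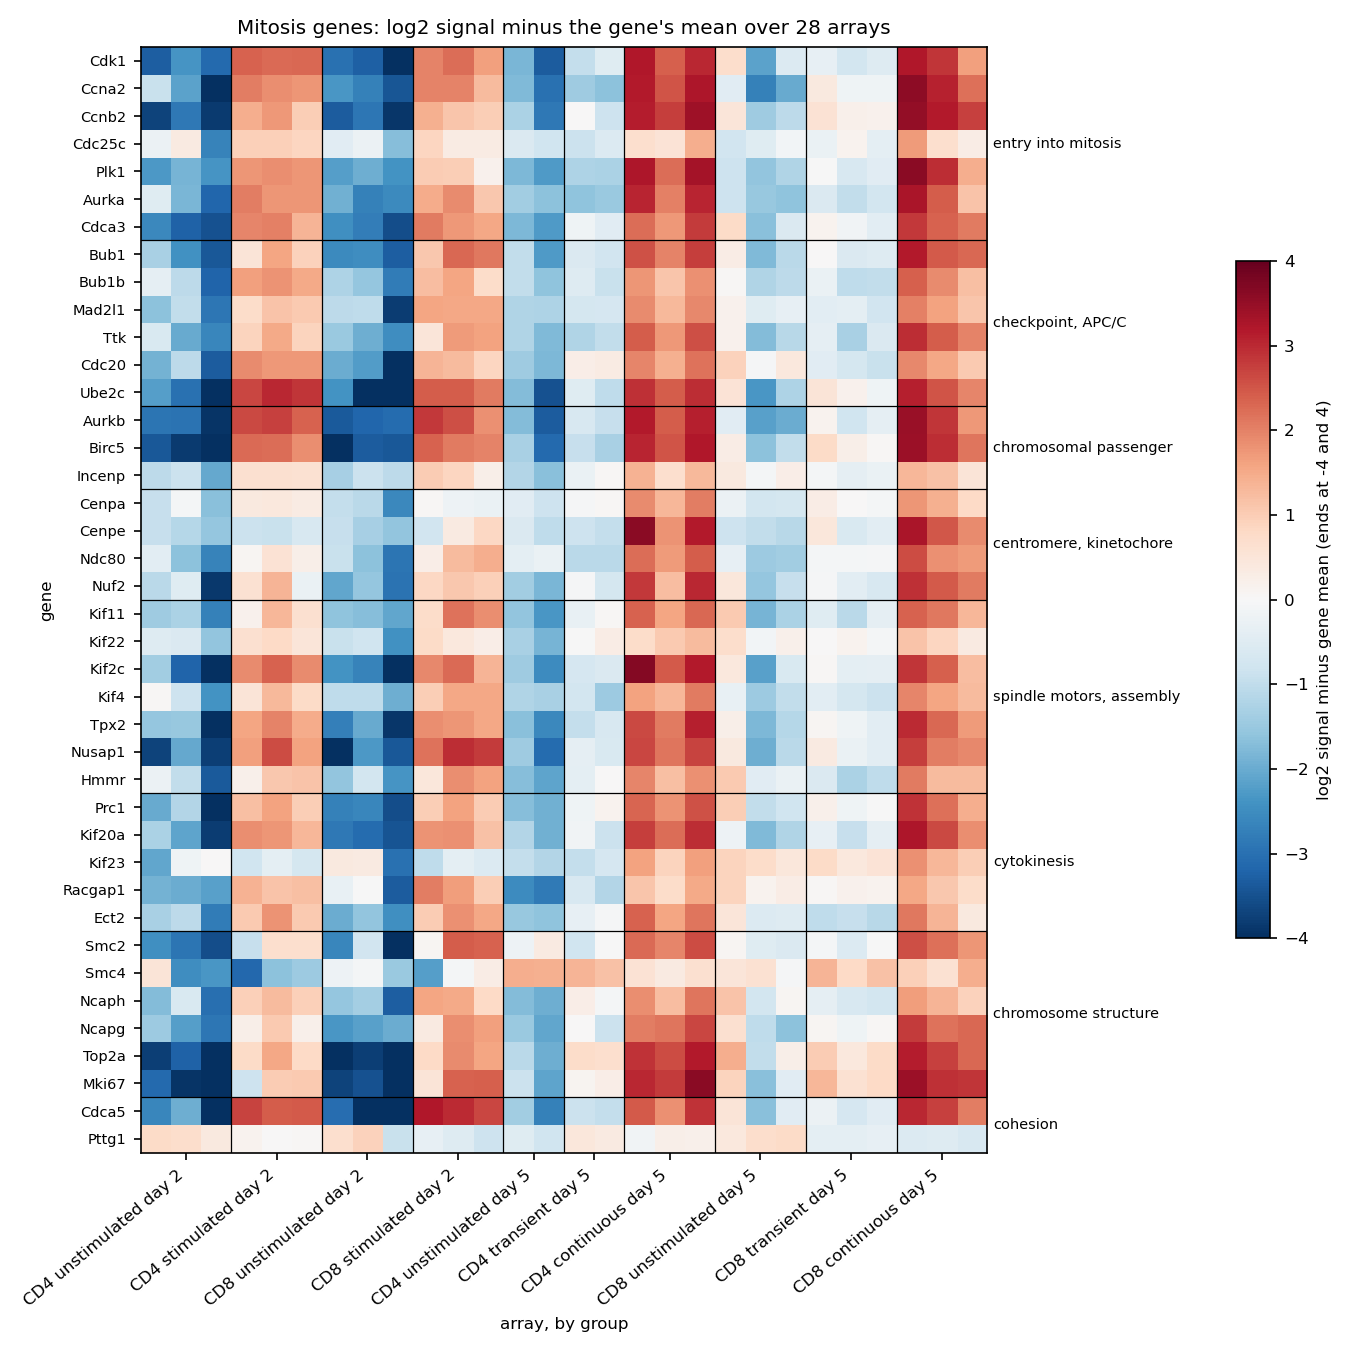
Log2 signal of the 40 measured members (rows, by role) on the 28 arrays (columns, by group), each gene centred on its own mean over the arrays, with red above and blue below that mean and the colour scale ending at 4 log2 units on either side. Stimulated day 2 and continuous day 5 columns are high in most rows, unstimulated day 2 columns are low, and the rows of Smc4, Pttg1 and Kif23 do not follow this order.

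On day 2, stimulation raised most of the members in both cell types. In CD4 cells 30 of 40 rose and none fell (median log2 change 3.22), where 10.7% of all genes rose, 0.718% fell and the median change was 0.14. In CD8 cells 34 of 40 rose and none fell (median 3.50), where 7.49% of all genes rose and 0.863% fell. The same 30 genes rose in both cell types, and Ndc80, Nuf2, Kif22 and Hmmr passed the test in CD8 cells alone. Without the third unstimulated arrays these genes also passed in CD4 cells, with adjusted p from 0.000746 (Kif22) to 0.0279 (Hmmr). All stimulated arrays lay above all unstimulated ones in 37 members in CD4 cells and in 37 in CD8 cells (29.0% and 26.8% of all genes). A call means an adjusted p below 0.05 in limma, with Benjamini-Hochberg adjustment over 12393 genes.

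Of the genes of entry into mitosis, 6 of 7 rose in each cell type. Cdk1, the kinase that drives mitosis, was at 5.30, 6.24 and 5.48 on the unstimulated CD4 arrays and at 10.95, 10.87 and 10.89 on the stimulated ones. In CD8 cells Cdk1 was at 5.61, 5.33 and 4.60 before and 10.57, 10.83 and 10.23 after stimulation. All stimulated arrays were above all unstimulated ones, with changes of 5.23 (SE 0.42, adjusted p = 2.32e-05, 37.6-fold) in CD4 and 5.36 (SE 0.42, adjusted p = 1.71e-05, 41.2-fold) in CD8 cells. Its partner Ccnb2 (cyclin B2) rose by 4.86 and 4.54, Ccna2 (cyclin A2) by 4.32 and 4.56, and the mitotic kinases Plk1 by 3.98 and 2.92 and Aurka by 3.70 and 3.88, in CD4 and CD8 cells in that order. Cdc25c, the phosphatase that activates Cdk1, changed by 1.77 (SE 0.67, adjusted p = 0.108) and 1.30 (adjusted p = 0.274) and passed in neither. Without the third unstimulated arrays it passed in both (0.85, adjusted p = 0.0101, and 0.84, adjusted p = 0.0207).

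All 6 checkpoint and anaphase-promoting complex genes rose in both cell types, as did all 3 measured passenger genes. Ube2c, the ubiquitin-conjugating enzyme of the anaphase-promoting complex, was at 6.15, 5.36 and 2.83 on unstimulated CD4 arrays and at 11.03, 11.37 and 11.21 on stimulated ones. It rose by 6.42 in CD4 (SE 0.78, adjusted p = 0.000258) and by 6.13 in CD8 cells (SE 0.78, adjusted p = 0.000331). The stimulated arrays lay close together and replicate 3 was the lowest of the unstimulated arrays, with no overlap. Cdc20, the activator of that complex, rose by 3.88 and 4.23, and the checkpoint kinases Bub1 by 3.38 and 4.61 and Ttk by 2.84 and 3.25. In the passenger complex, Birc5 (survivin) rose by 5.90 and 5.74, Aurkb (its kinase) by 5.85 and 5.62, and the scaffold Incenp by 1.95 and 1.79.

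With all arrays of day 2, none of the 4 kinetochore genes passed in CD4 and 2 passed in CD8 cells. Without the third unstimulated arrays, Cenpa (0.88, adjusted p = 0.0102), Ndc80 (1.33, adjusted p = 0.0262) and Nuf2 (1.36, adjusted p = 0.0183) passed in CD4 cells. In CD8 cells Cenpa (0.88, adjusted p = 0.0193) and Cenpe (1.28, adjusted p = 0.0318) then passed beside Ndc80 and Nuf2. The values that follow include all arrays. Cenpe, a kinetochore motor, was at 3.31, 3.10 and 2.68 without stimulation and at 3.36, 3.34 and 3.59 with it in CD4 cells, with no overlap but a small distance (change 0.40, SE 0.45, adjusted p = 0.668). In CD8 cells Cenpe was at 3.30, 2.90 and 2.65 and at 3.47, 4.60 and 5.07 (change 1.43, SE 0.45, adjusted p = 0.0673). Cenpa, the histone H3 variant of centromeres, changed by 1.27 (adjusted p = 0.137) and 1.41 (adjusted p = 0.111). Ndc80 and Nuf2, of the complex that binds microtubules, rose in CD8 cells by 2.81 and 3.14, and had 1.88 (adjusted p = 0.0717) and 2.39 (adjusted p = 0.0542) in CD4 cells. The difference of the day 2 changes between the cell types passed for no member in limma (0% of all genes), and 0 had an unadjusted p below 0.05. Without the third unstimulated arrays it also passed for no member, with the lowest adjusted p at 0.0782 (Cdca5).

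Of the spindle genes 5 of 7 rose in CD4 and 7 of 7 in CD8 cells, among them Nusap1 (a spindle-binding protein; 5.11 and 5.99) and Kif2c (a kinesin that takes microtubules apart; 5.24 and 5.05). The Kif2c calls rest on 1 of its probe sets: the mean of its probe sets gave 1.26 (adjusted p = 0.191) and 1.23 (adjusted p = 0.219), and that of Hmmr 1.10 in CD8 cells (adjusted p = 0.307), none of which passed. The mean of probe sets also gave smaller rises, still called, for Nusap1 (2.64 and 3.16), Top2a (2.30 and 2.57), Bub1 (2.06 and 2.95) and Cdca3 (1.64 and 1.58). Of the cytokinesis genes 4 of 5 rose in each: Kif20a (4.04 and 4.71), Prc1 (3.73 and 4.15), Ect2 (3.01 and 3.48) and Racgap1 (3.26 and 2.79), while Kif23, the kinesin that partners Racgap1 in the central spindle, had 0.11 and 0.09. The unstimulated arrays of Kif23 spread widely (SD 1.16 in CD4 and 1.95 in CD8 cells). Of the chromosome genes 5 of 6 rose, with Top2a (topoisomerase II alpha) at 5.08 and 5.84 and Mki67 (the Ki-67 antigen, a coat of mitotic chromosomes) at 4.61 and 5.55. Cdca5 (sororin, which protects cohesion) had 6.62, 7.27 and 3.56 against 11.91, 11.63 and 11.67 in CD4 and 6.18, 5.20 and 3.98 against 12.42, 12.21 and 11.90 in CD8 cells. It rose by 5.92 (SE 0.80, adjusted p = 0.000609) and by 7.05 (SE 0.80, adjusted p = 0.000154), and the groups did not overlap.

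Without replicate 3 of both unstimulated groups, 36 members rose and 1 fell in CD4 cells (median 2.85) and 37 rose and 1 fell in CD8 cells (median 3.26), and all 30 and all 34 earlier calls were kept. The member that fell was Pttg1, by 0.67 in CD4 (adjusted p = 0.0102) and by 1.34 in CD8 cells (adjusted p = 0.000795), and Smc4 and Kif23 passed in neither cell type. Kif23 then had 0.49 in CD4 (adjusted p = 0.375) and -1.04 in CD8 cells (adjusted p = 0.106). Cenpe passed in CD8 cells alone (1.28, adjusted p = 0.0318). Setting the medians of the arrays equal moved the median change of all genes in CD4 cells from 0.14 to -0.48 and quantile normalization to -0.15. All genes then split into 2173 up and 3727 down, and into 1406 up and 1506 down, in place of 1320 and 89. In CD8 cells the splits were 1892 up and 3091 down, and 1280 up and 1312 down, in place of 928 and 107. Of the members, 35 and 34 rose and 1 fell in CD4 cells under these settings. The unstimulated arrays also had the larger beta-actin 3′ minus 5′ differences, and the part of this in the result was not tested.

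**Figure D2:**
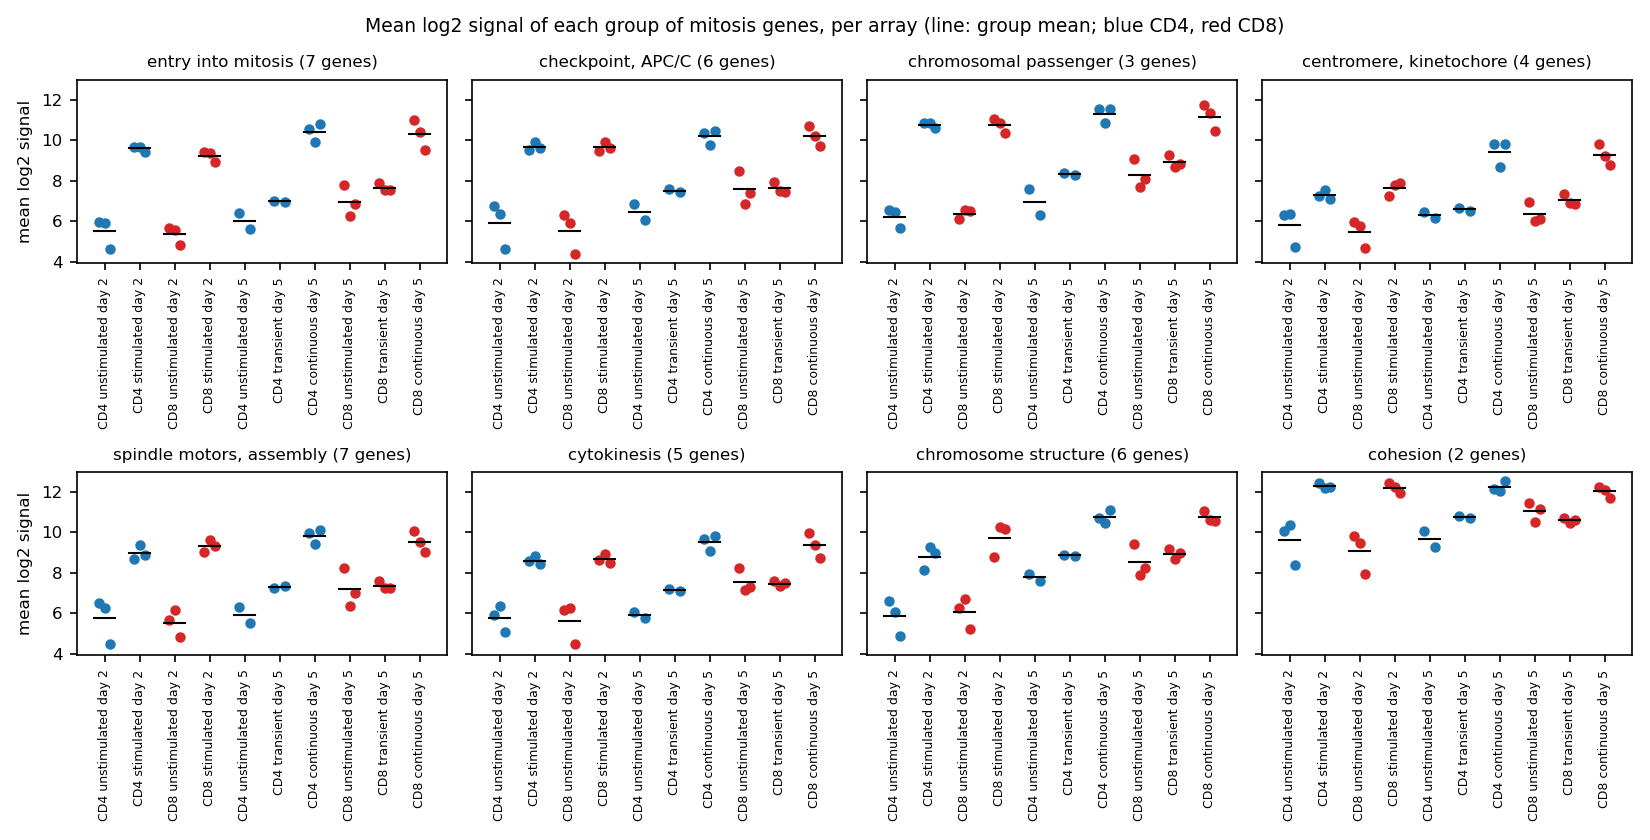
Mean log2 signal over the genes of each of the 8 roles (panels) on every array (points), by group along the x axis, with CD4 cells in blue, CD8 cells in red and a line at each group's mean. Continuous day 5 arrays are the highest points in the kinetochore panel (8.67 to 9.83, against 7.07 to 7.90 in stimulated cells of day 2), while in the passenger panel the 2 ranges overlap (10.46 to 11.73 and 10.34 to 11.07).

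On day 5, members were higher under continuous antigen than after transient stimulation. In CD4 cells 38 of 40 rose and 1 fell (median 2.72), where 17.6% of all genes rose, 16.5% fell and the median was -0.06. In CD8 cells 38 of 40 rose and none fell (median 2.40), where 13.6% of all genes rose, 13.6% fell and the median was -0.05. The same 38 genes rose in both, which left Smc4 and Pttg1. For these 38, no continuous array overlapped a transient one in either cell type (25.3% and 18.3% of all genes were above without overlap). Leaving out each array in turn kept 35 of the 39 calls in CD4 and 35 of the 38 in CD8 cells.

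Ccna2 had the largest change in CD4 cells, with 7.17 and 6.96 on the transient arrays and 11.76, 11.11 and 11.83 on the continuous ones (4.50, SE 0.56, adjusted p = 4.49e-05, 22.7-fold). In CD8 cells Ccna2 was at 9.00, 8.43 and 8.42 after transient stimulation and at 12.18, 11.69 and 10.80 under continuous antigen (2.94, SE 0.50, adjusted p = 0.000742). Replicate 3 of the continuous CD8 cells was the lowest of its group and still above all transient arrays. All 7 genes of entry rose in both cell types, Cdc25c among them (1.60 and 1.06), with Aurka at 4.24 and 3.04, Plk1 at 4.17 and 3.04, Cdk1 at 3.59 and 3.08, and Ccnb2 at 3.51 and 2.82. All checkpoint genes rose, with Cdc20 at 1.54 and 2.18, Ube2c at 3.51 and 2.35 and Ttk at 3.34 and 3.19. So did all passenger genes, with Incenp at 1.24 and 1.24, Aurkb at 3.69 and 3.03 and Birc5 at 4.03 and 2.50.

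All 4 kinetochore genes rose in both cell types. Cenpe was at 3.40 and 3.26 on the transient CD4 arrays and at 7.85, 6.01 and 7.39 on the continuous ones (3.75, SE 0.48, adjusted p = 5.2e-05). In CD8 cells Cenpe was at 4.69, 3.62 and 3.82 and at 7.48, 6.72 and 6.13 (2.73, SE 0.43, adjusted p = 0.000409). The continuous arrays of both cell types were the highest of all 28 for this gene. Ndc80 (3.19 and 2.11), Nuf2 (2.73 and 2.87) and Cenpa (1.76 and 1.26) rose as well. All 7 spindle genes rose, among them Kif11, the motor that parts the spindle poles (2.22 and 2.58), Kif2c (3.73 and 2.39) and Kif22, a chromosome-arm kinesin (0.87 and 0.76). With the mean of probe sets Kif2c had 1.55 and 1.28, Top2a 0.90 and 0.87 in place of 2.19 and 1.99, and Kif22 1.88 in CD4 cells, all still called in both cell types, while Smc4 in CD4 cells had -0.32 and no longer passed. All 5 cytokinesis genes rose, and the condensin subunits Smc2 (2.68 and 2.41), Ncapg (2.71 and 2.42) and Ncaph (1.65 and 1.91) rose while Smc4, their partner, did not.

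Of the called members with several probe sets, another probe set passed in the same direction in 17 of 20 in CD4 and in 14 of 19 in CD8 cells. Markers of other cells moved with the CD4 comparison: 9 of 13 B cell markers fell from transient to continuous cells, their mean lying at 8.74 and 7.44 on the transient arrays and at 5.75, 4.92 and 4.99 on the continuous ones. In CD8 cells none of the 13 passed, with means of 5.26 to 6.46 and 5.47 to 6.96. Myeloid markers also differed between the transient CD4 arrays (7.37 and 10.03). The part of these markers and of the beta-actin difference in the CD4 result was not tested.

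**Figure D3:**
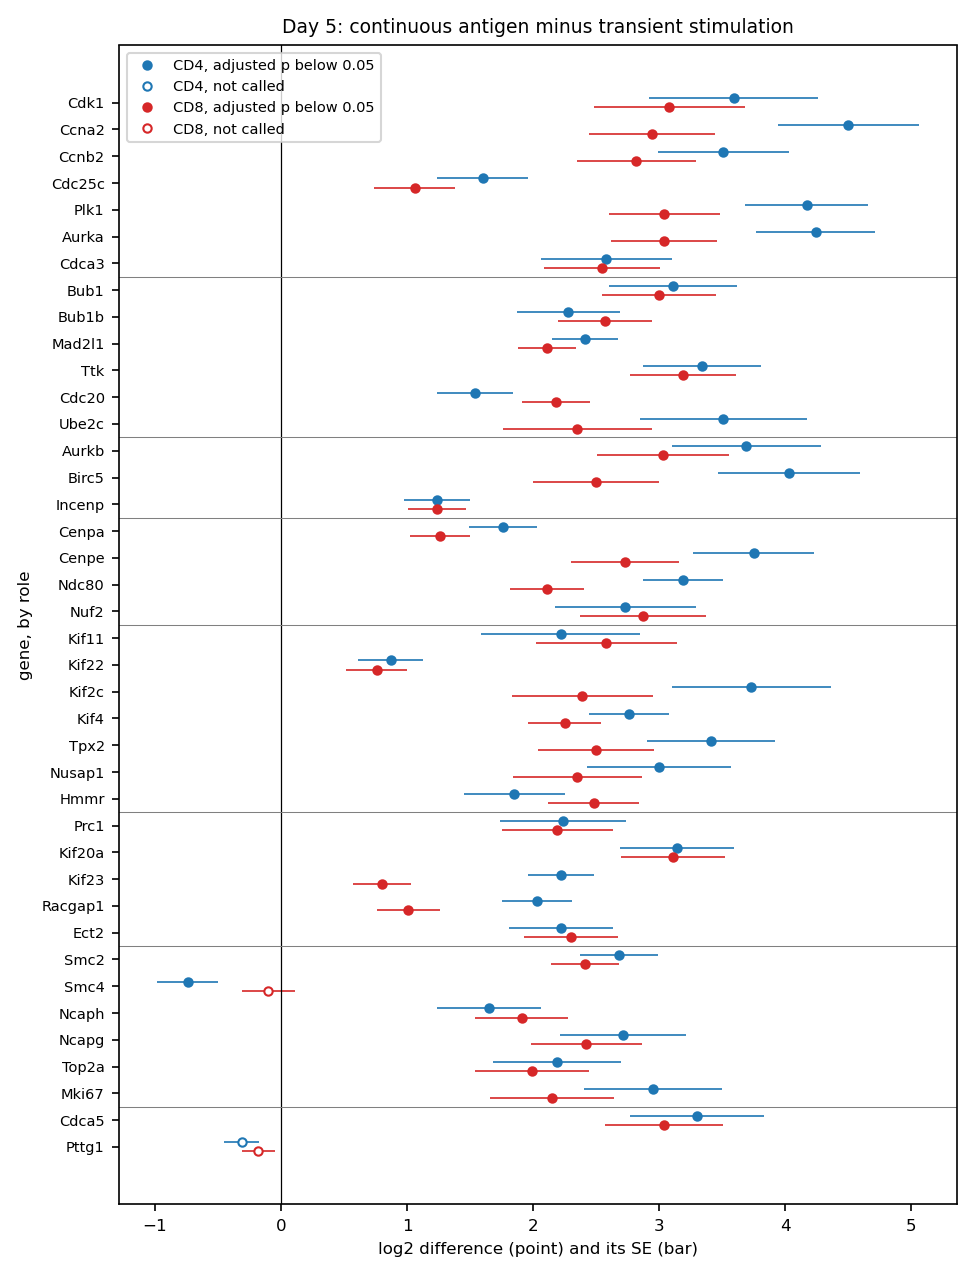
Log2 difference of continuous minus transient arrays on day 5 for each member (rows, by role), with its SE as a bar, for CD4 and CD8 cells, filled where the adjusted p is below 0.05. All members but Smc4 and Pttg1 lie right of 0 in both cell types, from 0.76 (Kif22, CD8) to 4.50 (Ccna2, CD4).

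Against unstimulated cells of day 5, continuous antigen raised 39 members and lowered 1 in CD4 cells (median 4.00; 9.92% of all genes rose and 10.8% fell) and raised 38 and lowered 1 in CD8 cells (median 2.93; 21.4% rose and 25.9% fell). Of these, 37 rose in both cell types. Both comparisons share the continuous arrays with those above. The largest changes were those of Cdk1 and Aurkb in CD4 cells (5.43 each) and of Ccna2 in CD8 cells (4.67). Racgap1 was at 5.48 and 5.16 on unstimulated CD4 arrays and at 8.90, 8.13 and 8.30 on unstimulated CD8 arrays, while continuous arrays lay at 8.74 to 9.51 and 8.74 to 9.56. It rose by 3.80 (SE 0.28, adjusted p = 2.08e-06) in CD4 and by 0.69 (SE 0.25, adjusted p = 0.0372) in CD8 cells, where the groups overlapped. The CD8 call was lost with quantile normalization (0.51, adjusted p = 0.123), median centring (0.61, adjusted p = 0.0509), all 28 arrays in 1 fit (adjusted p = 0.564), only the groups compared (adjusted p = 0.0809), and without replicate 2 (0.53) or 3 (0.61) of the unstimulated or replicate 1 (0.47) or 2 (0.71) of the continuous CD8 cells.

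Continuous antigen on day 5 also gave higher levels of some members than 2 days of antibody in culture. Here day, culture and host cannot be told apart. The beta-actin 3′ minus 5′ difference was 1.11 to 1.69 on stimulated arrays of day 2 and 0.31 to 0.62 on continuous arrays. Its part in these results was not tested. In CD4 cells 24 of 40 were higher and none lower (median 0.90; 17.1% of all genes rose and 26.0% fell), and in CD8 cells 14 of 40 were higher and none lower (median 0.62; 15.3% rose and 20.7% fell). The 14 genes of CD8 cells all rose in CD4 cells too: Ccna2, Ccnb2, Plk1, Ttk, Cenpa, Cenpe, Ndc80, Nuf2, Prc1, Kif20a, Kif23, Smc4, Ncapg and Top2a.

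The roles differed in their counts. All 4 kinetochore genes passed in both cell types, and 1 of 3 passenger genes in CD4 and none in CD8 cells. Spindle genes passed in 4 of 7 in CD4 and none in CD8 cells, and chromosome genes in 6 of 6 and 3 of 6. Cenpe rose by 3.65 (SE 0.48, adjusted p = 2.72e-05, 12.6-fold) and 2.40 (SE 0.48, adjusted p = 0.00131), from the day 2 values given above. Kif23 was at 7.39, 7.79 and 7.47 on stimulated CD4 arrays of day 2 and at 9.81, 9.08 and 9.82 under continuous antigen, and at 7.16, 7.80 and 7.65 and at 10.02, 9.50 and 9.17 in CD8 cells. It rose by 2.02 (SE 0.24, adjusted p = 1.13e-05) and by 2.03 (SE 0.24, adjusted p = 1.77e-05), with no overlap.

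Ccnb2 was at 9.24, 9.52 and 8.77 on stimulated CD4 arrays and at 10.93, 10.54 and 11.16 on continuous ones (1.70, adjusted p = 0.000101), and in CD8 cells it rose by 1.97 (adjusted p = 4.34e-05). Its kinase Cdk1 had 0.56 (SE 0.32, adjusted p = 0.179) and 0.61 (SE 0.32, adjusted p = 0.16). Several genes with large changes on day 2 did not pass here: Ube2c had -0.09 and 0.20, Aurkb 0.32 and 0.27, Cdca5 -0.13 and -0.36, and Cdc20 0.06 and 0.34. Top2a rose by 1.86 and 1.30, and Mki67 by 2.72 in CD4 cells, with 1.31 (adjusted p = 0.0575) in CD8 cells. With the mean of probe sets Top2a had 0.86 and 0.60, still called, while Kif2c in CD4 cells (1.06) had 0.32 (adjusted p = 0.211) and Ncapg in CD8 cells (1.13) had 0.52 (adjusted p = 0.225), and neither passed.

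These counts moved with single arrays. Without replicate 1 or 3 of the stimulated CD4 cells of day 2 the CD4 count was 14 or 15, and without replicate 3 of the continuous CD4 cells 14. The CD8 count was 9 without the first stimulated CD8 array and 7 without the first continuous CD8 array. Calls kept with each array left out in turn numbered 13 of 24 and 7 of 14.

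**Figure D4:**
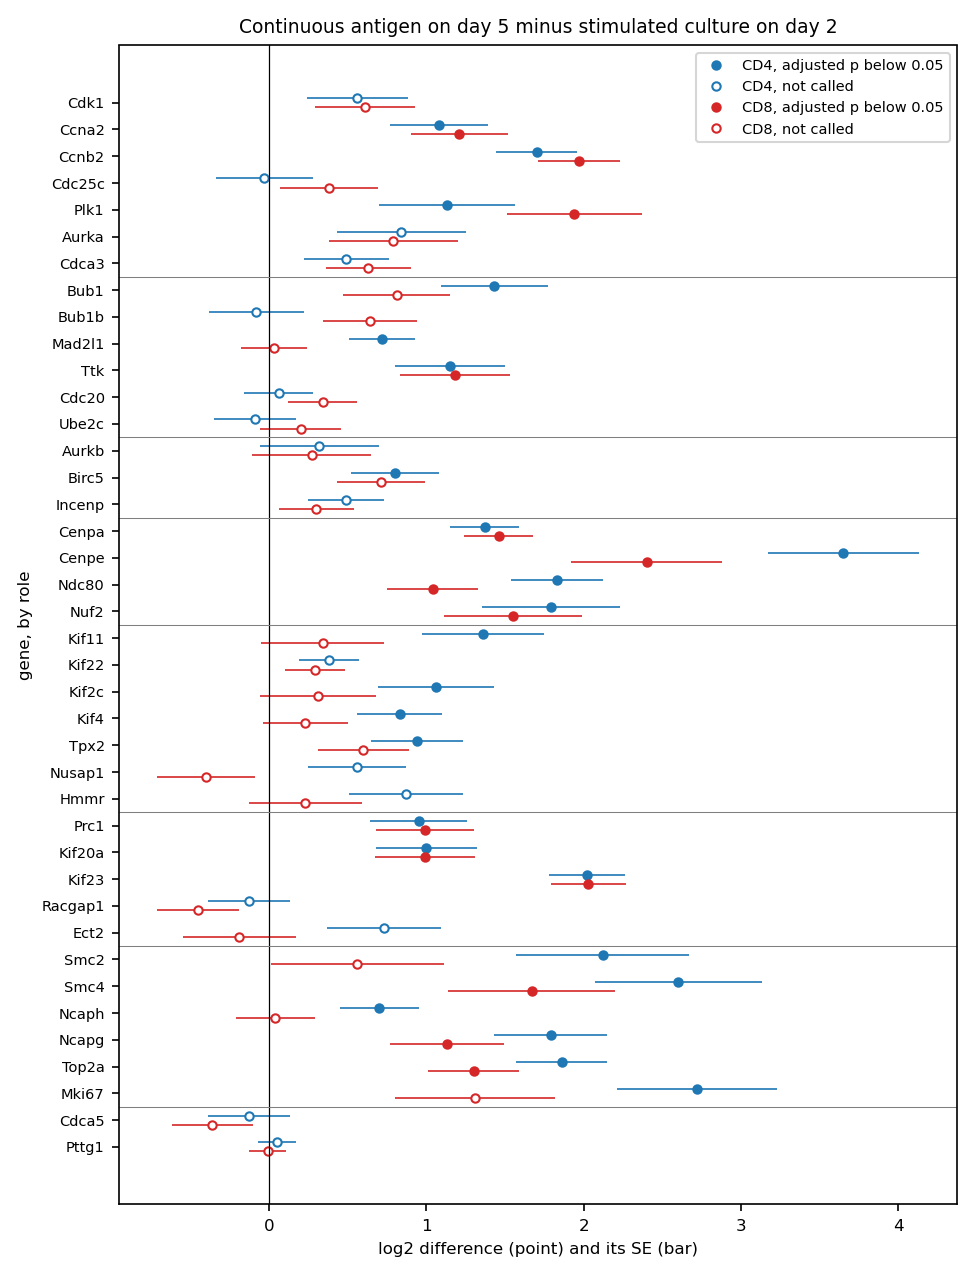
Log2 difference of continuous day 5 minus stimulated day 2 arrays for each member (rows, by role), with its SE as a bar, for CD4 and CD8 cells, filled where the adjusted p is below 0.05. The 4 kinetochore genes are filled in both cell types, with Cenpe farthest right at 3.65 and 2.40.

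After transient stimulation members were lower on day 5 than in stimulated cells of day 2. In CD4 cells 27 fell and 2 rose (median -1.66; 26.2% of all genes fell and 19.3% rose), and in CD8 cells 30 fell and 2 rose (median -1.84; 24.7% fell and 19.7% rose). The same 25 genes fell in both. Day, culture and host again cannot be told apart. The transient CD4 arrays had B cell marker means of 8.74 and 7.44, against 4.93 to 5.23 on stimulated CD4 arrays, and beta-actin differences of 2.42 and 2.73, against 1.11 to 1.39, and the part of these in the CD4 result was not tested. Transient arrays lay below all stimulated arrays in 33 members of each cell type (36.0% and 30.8% of all genes).

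Ube2c fell by 3.60 (SE 0.29, adjusted p = 2.22e-07) to 7.87 and 7.34 in CD4 cells, and by 2.15 (SE 0.26, adjusted p = 8.64e-06) to 8.85, 8.52 and 8.19 in CD8 cells. Cdca5 fell by 3.43 and 3.40, to 8.36 and 8.26 in CD4 and 9.00, 8.55 and 8.78 in CD8 cells. Aurkb fell by 3.37 and 2.76, Cdk1 by 3.03 and 2.47, Aurka by 3.40 and 2.25, and Birc5 by 3.23 and 1.79. No call was made in either cell type for Cenpa, Cenpe, Kif22, Top2a and Mki67. Top2a was at 10.14 and 10.08 on transient CD4 arrays against 10.16, 10.95 and 10.21 (-0.33, SE 0.32, adjusted p = 0.444), and at 10.44, 9.82 and 10.17 on transient CD8 arrays against 10.21, 11.29 and 10.98 (-0.68, adjusted p = 0.0705). Mki67 had -0.23 (SE 0.57) and -0.84 (SE 0.51). The genes that rose were Smc4 (3.34 and 1.77), Pttg1 in CD4 cells (0.36) and Kif23 in CD8 cells (1.23).

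Against cells that were never stimulated, the transient cells of day 5 gave few calls, and their number moved with single arrays. In CD4 cells 11 members rose and none fell (median 1.27; 9.66% of all genes rose and 13.1% fell). They were Cdca3, Cdc20, Incenp, Kif22, Hmmr, Prc1, Racgap1, Ect2, Ncaph, Top2a and Pttg1. In CD8 cells 3 rose (Ccna2, Ndc80 and Smc4) and 3 fell (Cdc20, Hmmr and Pttg1), with a median of 0.33, where 16.3% of all genes rose and 15.5% fell. No member rose in both cell types, and Cdc20, Hmmr and Pttg1 rose in CD4 and fell in CD8 cells. Among all genes, this change was higher in CD8 than in CD4 cells for 18.5% and lower for 18.9%. The share of all genes called in opposite directions was not counted.

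Top2a was at 8.32 and 7.45 on unstimulated and at 10.14 and 10.08 on transient CD4 arrays, which do not overlap (2.23, SE 0.56, adjusted p = 0.0108). Its unstimulated CD8 arrays were at 10.85, 8.41 and 9.65 and its transient ones at 10.44, 9.82 and 10.17, which overlap (0.51, SE 0.45, adjusted p = 0.431). Cdc20 was at 8.85 and 8.47 and then at 10.54 and 10.60 in CD4 cells (1.91, SE 0.33, adjusted p = 0.000997), and at 11.19, 10.21 and 10.69 and then at 9.82, 9.58 and 9.38 in CD8 cells (-1.10, SE 0.27, adjusted p = 0.0063). Neither pair of groups overlapped. Pttg1 rose by 1.06 (SE 0.15, adjusted p = 0.000297) in CD4 cells and fell by 1.00 (SE 0.13, adjusted p = 5.18e-05) in CD8 cells.

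Of the 11 CD4 genes 10 had several probe sets, and for 3 of them another probe set passed in the same direction. The other probe sets of Cdc20 had 0.66 (adjusted p = 0.226) and 0.53 (adjusted p = 0.316), and another one of Racgap1 had -0.69 (adjusted p = 0.112) where the chosen one had 1.77. In CD8 cells 2 of the 5 such genes had a second probe set that passed. With the mean of probe sets the CD4 calls of Cdca3 (0.67), Incenp (0.42), Racgap1 (0.54) and Prc1 (1.58) and the CD8 calls of Ccna2 (0.79), Cdc20 (-0.40) and Hmmr (-0.28) were lost, while in CD4 cells Cdc20 (1.04), Hmmr (0.83), Top2a (1.24) and Pttg1 (0.54) were still called. The chosen probe sets of Cdc20, Incenp, Kif22 and Ncaph carry the platform's x suffix, which marks probes that can bind other transcripts. The plot of transient probe sets shows those of CD4 cells.

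**Figure D5:**
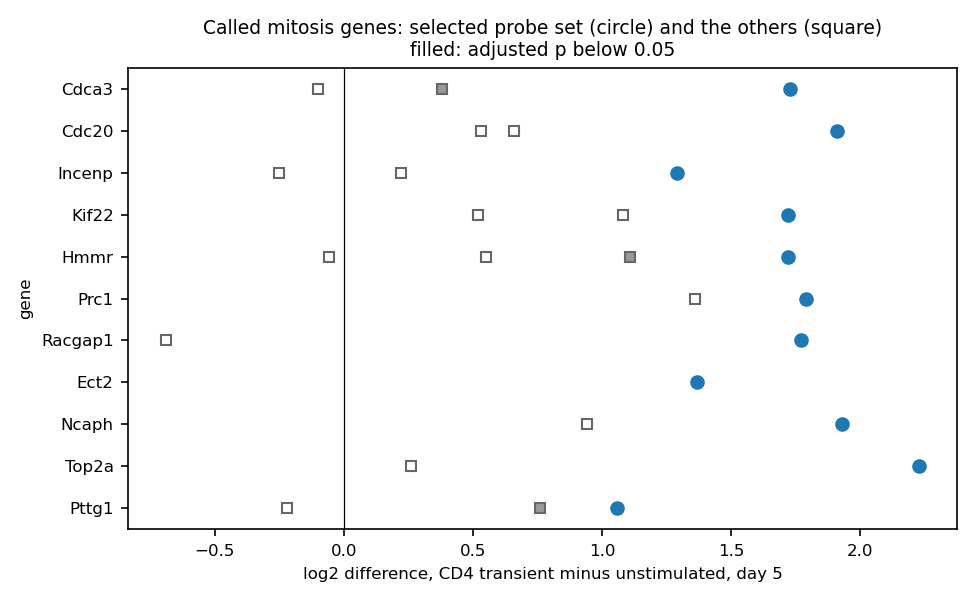
Log2 difference of transient minus unstimulated CD4 arrays on day 5 (x axis) for every probe set of the 11 members called there (rows), with the chosen probe set as a circle, the others as squares, and symbols filled where the adjusted p is below 0.05. The chosen probe sets lie between 1.06 and 2.23, and the other probe sets of each gene lie closer to 0 than its chosen one.

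The CD4 count was 4 without the second unstimulated array, 6 without the first transient and 7 without the second transient array. The CD8 count was 16 (14 up and 2 down) without the first unstimulated CD8 array, the one with the high myeloid and plasmablast markers, whose member mean was 8.46 against 7.02 and 7.46. It was 3 without replicate 3 of the unstimulated CD8 cells. Same-numbered arrays correlated in this CD8 comparison (0.50, 0.36 and 0.15), though the labels do not state a pairing. With the number as a block 8 members rose and 3 fell. In CD4 cells 6 of 13 B cell markers rose, with means of 6.01 and 5.12 on unstimulated arrays, and the beta-actin difference was larger in transient CD4 and in unstimulated CD8 arrays. Their part in these results was not tested.

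Between the cell types, no member differed in stimulated cells of day 2 (CD8 minus CD4). By limma 3 of all genes passed (0.0242%), and 1 member had an unadjusted p below 0.05. With array weights 17 members passed, and without the third unstimulated arrays of day 2 none did. Differences ran from -1.07 to 1.48 with SE of 0.39 to 0.85, and the 95% interval lay within 1 log2 unit of 0 for 2 of 40 members. Under continuous antigen 1 member differed: Pttg1 was at 12.68, 13.03 and 13.02 in CD4 and at 12.26, 12.28 and 12.18 in CD8 cells (-0.67, SE 0.13, adjusted p = 0.00445), with CD8 arrays lower and no overlap. None was higher in CD8 cells, where 6.58% of all genes were higher and 4.62% lower. The 95% interval lay within 1 log2 unit of 0 for 16 of the 40 members, and it ran from -1.60 to 0.98 for Cdk1.

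The unstimulated cells of day 5 differed more. There 15 members were higher and 1 lower in CD8 than in CD4 cells (median 1.19; 14.4% of all genes were higher and 14.3% lower), led by Racgap1 (3.12, SE 0.28, adjusted p = 5.43e-06), Cdc20 (2.03), Hmmr (2.02) and Ncaph (2.00). Cdc20 had 1.19 and Hmmr 0.79 with the mean of probe sets, still called. Smc4 was lower (-1.10, or -1.67 with the mean of probe sets). Cdk1 (1.90) was called, but not under 9 alternatives other than stricter thresholds, among them quantile normalization (1.83, adjusted p = 0.0507), and it had 1.15 (adjusted p = 0.373) without replicate 2 of the CD4 cells and 1.23 (adjusted p = 0.147) without replicate 1 of the CD8 cells. Of the 16 calls, 3 were kept under every alternative run other than stricter thresholds. The beta-actin difference was 1.92 to 2.44 on these CD8 arrays and 0.67 and 0.98 on the CD4 arrays, and replicate 1 of the CD8 cells had the myeloid mean of 10.05 and member mean of 8.46 given above. Their part in this difference was not tested. Without the second unstimulated CD4 array 9 members passed, and without the second unstimulated CD8 array 24. In transient cells Kif23 (1.41), Racgap1 (1.03) and Ndc80 (1.00) were higher and Cdc20 (-0.98) and Pttg1 (-0.80) lower in CD8 cells (15.4% and 11.7% of all genes). That count was 2 without the second transient CD4 array and 3 without the first transient CD4 or replicate 2 or 3 of the transient CD8 cells.

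Smc4 and Pttg1 went their own way, and Kif23 had no call on day 2. On day 5 the correlation of Kif23 with the mean of the other members was 0.83. Smc4 was at 12.64 and 12.60 in unstimulated, at 12.53 and 12.34 in transient and at 11.75, 11.53 and 11.81 in continuous CD4 cells of day 5, so that the continuous arrays were the lowest and did not overlap. It fell by 0.74 from transient to continuous CD4 cells (SE 0.24, adjusted p = 0.0274). A second probe set gave -1.11 (adjusted p = 0.0258) and the other 0.90 (adjusted p = 0.0408), so the probe sets of Smc4 disagree in direction. In CD8 cells Smc4 rose by 0.67 from unstimulated to continuous cells (adjusted p = 0.0194), and the difference between cell types in that change was 1.60 (SE 0.32, adjusted p = 0.00376). The CD8 call of Smc4 was lost with quantile normalization (0.57, adjusted p = 0.0748) and array weights (0.45, adjusted p = 0.0746). It was also lost with only the groups compared, with all 28 arrays in 1 fit, and without replicate 3 of the unstimulated or of the continuous CD8 cells.

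Pttg1 lay between 11.93 and 13.73 on all arrays. It rose by 0.75 from unstimulated to continuous CD4 cells (adjusted p = 0.00187) and fell by 1.18 in CD8 cells (SE 0.13, adjusted p = 5.72e-06), where the other probe sets gave -0.99 and -0.99. The difference between the cell types was -1.93 (SE 0.19, adjusted p = 3.22e-05). The continuous minus transient change of Kif23 was 2.22 in CD4 and 0.80 in CD8 cells, a difference of -1.42 (SE 0.34, adjusted p = 0.0111). This difference was not called with the first transient CD4 array left out, and no other probe set of Kif23 passed for it. The CD8 change of Kif23 was not called with the mean of probe sets (0.56, adjusted p = 0.0577). Nor was it called without replicate 2 or 3 of the transient or replicate 1 of the continuous CD8 cells, or with all 28 arrays in 1 fit.

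Other genes of the cycle were set beside the members. Of 40 further genes of mitosis, 25 rose on day 2 in each cell type, and 37 rose from transient to continuous cells in each (1 fell in CD4 cells). Of 37 DNA replication genes, 25 rose in CD4 and 30 in CD8 cells on day 2, with Cdc6, which loads the replicative helicase, at 6.74 and 6.82, and 34 and 36 rose from transient to continuous cells. From unstimulated to transient CD8 cells, 13 replication genes fell and 3 rose, where 3 members fell and 3 rose (15.5% of all genes fell and 16.3% rose). The unstimulated CD8 arrays had the larger beta-actin differences, and the part of this was not tested. Under continuous antigen 10 of the 37 were higher in CD8 than in CD4 cells, where no member was.

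Foxm1, the factor that drives transcription of late cell cycle genes, changed by 0.29 (SE 0.46, adjusted p = 0.776) and 0.39 (SE 0.46, adjusted p = 0.725) on day 2, and rose from transient to continuous cells by 1.11 (SE 0.23, adjusted p = 0.00182) and 1.00 (SE 0.20, adjusted p = 0.00237). Mybl2 (B-Myb), which joins it on the same promoters, rose by 2.90 and 3.31 on day 2 and by 2.31 and 2.89 from transient to continuous cells. Of 7 inhibitors of cyclin-dependent kinases, 4 were lower in CD8 than in CD4 cells under continuous antigen, among them Cdkn1a (p21; -2.36, SE 0.32, adjusted p = 0.000591), Cdkn1b (p27; -1.23, adjusted p = 0.00271) and Cdkn2c (p18; -1.12, adjusted p = 0.0136). Fzr1, the other activator of the anaphase-promoting complex, rose on day 2 by 2.50 and 2.17. Cyclin B1 (Ccnb1) was not analysed here. The genes outside the list whose pattern was most like the mean of the members over 28 arrays were Cep55 (r = 0.984), Tk1 (0.981), Shcbp1 (0.981), Cenpk (0.978), Spc25 (0.975), Pclaf (0.973), Pbk (0.971) and Tacc3 (0.970), a description over arrays that share their conditions.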

How the data were processed

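RNA of sorted mouse T cells was measured on 28 arrays. The deposited log2 values per probe set were made by the authors with RMA, per the submitters' processing notes, and the chip reader and software versions are not given in the sources used here. Array number limits the precision. Of 22690 probe sets, 20380 had 1 gene symbol in the platform annotation, giving 12393 genes, each read from the probe set with the highest mean. RMA leaves low signals compressed, which can shrink a fold change.

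Groups were compared with limma 3.58.1 in R 4.3.3 (lmFit, eBayes; 2-sided), in 1 fit for day 2, 1 for day 5 and 1 across days, with Benjamini-Hochberg adjustment over all genes. The fit was tested on simulated data. Genes were named by a rule: all 40 measured members, up to 3 called genes with the largest change in each other list, Foxm1, Mybl2, Cdkn1a, Cdkn1b, Rbl2, Fzr1 and Ccnb1 (the last not analysed here) with or without a call, and the 8 other genes with the highest Pearson correlation to the mean of the members. The members and lists were chosen with earlier results of these data known. Alternatives changed the threshold, the scaling, the probe set rule, the fit and the arrays, and 1, crossed replicate numbers in CD4 transient cells, was added after the data were seen.

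Replicate numbers were checked for pairing by the correlation of same-numbered deviations from group means, which passed 0.1 in all 3 pairs only for transient against unstimulated CD8 cells (0.50, 0.36 and 0.15). Some comparisons had fewer pairs. Of these, all available pairs passed 0.1 for continuous against unstimulated CD4 cells (0.42 and 0.28) and for unstimulated CD8 against CD4 cells of day 5 (0.45 and 0.40). The main fits did not use the replicate numbers. Promoter windows are from RefSeq. Cd69 was not analysed here.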

Additional observations from a re-analysis of the deposited data

Results flagged for a closer look

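Changes of the members that differed between CD8 and CD4 cells were tested as differences of contrasts in limma (CD8 minus CD4, adjusted over all genes). For transient minus unstimulated cells, 10 members passed, 2 of them higher and 8 lower in CD8 cells, where 18.5% of all genes were higher and 18.9% lower. Members were thus lower about as often as all genes, and higher less often. The beta-actin 3′ minus 5′ difference was 2.42 and 2.73 on transient and 0.67 and 0.98 on unstimulated CD4 arrays. In CD8 cells it was 0.66 to 1.02 on transient and 1.92 to 2.44 on unstimulated arrays. Its part in these differences was not tested. The differences were -3.02 for Cdc20 (adjusted p = 8.58e-05), -2.77 for Hmmr (0.00166), -2.67 for Ncaph (0.00264), -2.20 for Ect2 (0.00869), -2.09 for Racgap1 (0.00096), -2.06 for Pttg1 (3.44e-06), -1.96 for Kif22 (0.000993), -1.72 for Incenp (0.00239), 1.73 for Ndc80 (0.00897) and 0.96 for Smc4 (0.0392). Of the 8 called genes with several probe sets, another probe set passed in the same direction in 3, and another in the opposite direction in 2. With the mean of probe sets Incenp had -0.19, Kif22 -1.07 and Racgap1 -0.54, and none of them passed.

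For continuous minus unstimulated cells, 11 members passed (1 higher, 10 lower; 11.3% and 8.46% of all genes), with the same unstimulated arrays in both comparisons. The differences were -3.11 for Racgap1 (adjusted p = 0.000136), -2.42 for Ncaph (0.00814), -2.38 for Cdc20 (0.0012), -2.15 for Hmmr (0.0134), -2.12 for Ect2 (0.016), -2.08 for Kif22 (0.00131), -1.93 for Pttg1 (3.22e-05), -1.76 for Kif23 (0.00309), -1.72 for Incenp (0.00425), -1.13 for Mad2l1 (0.0377) and 1.60 for Smc4 (0.00376). The unstimulated CD8 arrays have the larger beta-actin 3′ minus 5′ differences (1.92 to 2.44, against 0.67 and 0.98 in CD4), and the part of this was not tested. Without the second unstimulated CD8 array, 18 members passed. Incenp (-0.59) and Kif23 (-0.86) did not pass with the mean of probe sets.

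For continuous minus transient cells, Kif23 alone passed (-1.42, adjusted p = 0.0111, with 8.13% of all genes higher and 10.7% lower). No other probe set of Kif23 passed for it.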

How the results depend on the processing

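The counts of called members for stimulation on day 2 and for continuous against transient or unstimulated cells stayed within 1.5 times under every setting run. Single calls did not all stay: 23 of 30 (CD4) and 22 of 34 (CD8) were kept on day 2 under every setting other than stricter thresholds, 31 of 39 and 30 of 38 for continuous minus transient, and 35 of 40 and 31 of 39 for continuous minus unstimulated cells. At an adjusted p below 0.01, the count of called members was 12 in CD4 and 7 in CD8 cells for continuous day 5 minus stimulated day 2, 6 and 2 for transient minus unstimulated, 9 for unstimulated and 2 for transient CD8 minus CD4, and 0 for the difference of continuous minus transient. With all 28 arrays in 1 fit, these counts were 10, 4, 0, 0, 3, 0 and 0, with 20 for transient CD8 day 5 minus stimulated day 2, 0 for continuous CD8 minus CD4, and 2 and 0 for the differences of transient and of continuous minus unstimulated. With a change of at least 2-fold, 3 were called for CD8 transient minus unstimulated, 2 for transient and 0 for continuous CD8 minus CD4. With the mean of probe sets the counts were 3 for CD8 transient minus unstimulated, 3 for transient CD8 minus CD4 and 2 for the difference of continuous minus transient. With only the groups compared in a fit they were 8 for continuous CD8 day 5 minus stimulated day 2, 12 for transient CD8 minus CD4 and 2 for the difference of continuous minus transient. With array weights 17 were called for stimulated CD8 minus CD4 on day 2 and 13 for CD8 transient minus unstimulated.

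With the replicate block, 18 were called for CD4 and 11 for CD8 transient minus unstimulated and 2 for the difference of continuous minus transient. Same-numbered transient and unstimulated CD4 arrays correlated at -0.21. With 2 arrays in each group the pairs mirror each other, so this is a single value and not agreement between pairs. With the numbers crossed, an alternative chosen after seeing the data, the CD4 count was 19. The block moved no other count by over 1.5 times.

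Leaving out each array in turn gave 14 to 28 (CD4) and 7 to 18 (CD8) for continuous day 5 minus stimulated day 2, 4 to 12 (CD4) and 3 to 16 (CD8) for transient minus unstimulated, 2 to 4 for transient and 9 to 24 for unstimulated CD8 minus CD4, and 0 to 4 and 8 to 18 for the differences of continuous minus transient and minus unstimulated. Of single values, 2 reversed: Pttg1 in CD8 cells, continuous day 5 minus stimulated day 2, was 0.45 with the mean of probe sets, and Kif23 in CD8 cells on day 2 was -0.90 with array weights. The cause was not tested. A further 414 of 14280 values changed sign without a call. The number of arrays limits the precision of all comparisons.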
